A study of Homo sapiens with 18 samples.

Results

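The response of mRNA to low oxygen was compared between HKC-8, a line of human renal tubule cells, and HepG2, a human hepatocellular cancer line. Samples were taken by cell line and oxygen from the labels, which gave 12 of the 18 samples in the series, with 3 replicates each of normoxic HKC-8, hypoxic HKC-8, normoxic HepG2 and hypoxic HepG2. Neither line was labelled with a change of genotype or with any added agent, so that oxygen was the labelled difference within a line. All hypoxic samples were labelled as kept at 0.5% oxygen for 16 h, but hypoxic HKC-8 samples were titled 0.1% (and normoxic ones 21%). If the level did differ, an effect of the line and an effect of the oxygen level cannot be told apart. Each tissue was represented by 1 established line, and no label said that the replicates came from separate cultures, so that p-values measured the spread between these samples.

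Cells sense oxygen through prolyl hydroxylases (EGLN1, EGLN2 and EGLN3) that mark the alpha subunits of hypoxia-inducible factor (HIF) for capture by the VHL protein and degradation. In low oxygen HIF-1α (HIF1A) or HIF-2α (EPAS1) persists, pairs with ARNT and binds DNA at the hypoxia response element, raising genes of glucose uptake, glycolysis, pH control, matrix hydroxylation and blood vessel growth. The same stress can act through other routes, among them the transcription factor ATF4, which controls amino acid synthesis and uptake, and the sterol-sensing factor SREBP2, which controls cholesterol synthesis.

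Gene counts summed to between 75441764 and 97984260 per library in HKC-8 and between 40915980 and 48355303 in HepG2. A count of 3 was thus worth 0.0308 to 0.078 CPM (counts scaled to a common library total), and this limit covers counting error only. Levels are given below as CPM scaled by edgeR's TMM method. All 10 hepatocyte markers were above 1 CPM in HepG2 (summed level 35500 to 37100 in normoxia and 42600 to 46200 in hypoxia) and none was in HKC-8. Of 11 proximal tubule markers 3 were above 1 CPM in HKC-8 and 4 in HepG2, with a summed level of 155 to 201 in HKC-8 and 306 to 362 in HepG2, so that by this list HKC-8 was not above HepG2. The kidney lineage factor PAX8 was higher in HKC-8 (130 to 181 CPM against 8.82 to 12.8), and the peptidase ANPEP was higher in HepG2 (260 to 299 against 1.84 to 4.23). Markers of tubular uptake such as LRP2, AQP1 and SLC34A1 were near 0 in HKC-8. CUBN, another of them, stood at 0.0221 to 0.0619 CPM in normoxic and 0.302 to 0.698 in hypoxic HKC-8. Its HepG2 levels were 0.144 to 0.36 and 0.0479 to 0.174. Summed endothelial and leukocyte markers did not exceed 3.62 CPM in any sample. Summed fibroblast markers stood at 12.2 to 20.3 CPM in normoxic and 22.8 to 26.6 in hypoxic HKC-8, and at 26.8 to 30 and 63.2 to 71.7 in HepG2. PDGFRB carried most of the rise, at 4.64 to 10 and then 16.9 to 17.5 CPM in HKC-8. Its HepG2 levels were 21.3 to 22.5 and 54.1 to 61.9. In HKC-8 the median of COL3A1 went from 2.18 to 1.05 CPM and that of COL1A1 from 5.99 to 5.98. In HepG2 the median of COL1A1 went from 6.53 to 9.45, and COL3A1 did not exceed 0.0912. Summed mesenchymal markers stood at 5980 to 8610 and 8080 to 10800 in HKC-8, and at 10800 to 13200 and 16300 to 18100 in HepG2. FN1 made up most of this sum, at 4610 to 8820 CPM in HKC-8 and 10600 to 17900 in HepG2. VIM went the other way between the lines (1200 to 1750 in HKC-8 and 1.83 to 3.07 in HepG2). CDH2 stood at 167 to 202 in HKC-8 and 147 to 170 in HepG2. In HKC-8 summed epithelial markers were 2810 to 2990 in normoxia and 2610 to 2860 in hypoxia. In HepG2 they were 2950 to 3220 and 3940 to 4380. The part of these markers in the results was not tested. In bulk RNA, fewer cells of a kind and less RNA per cell cannot be told apart.

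The question was which genes answered hypoxia more, less or in the opposite direction in one line than in the other, which is the interaction of line and oxygen (log2 response in HKC-8 minus log2 response in HepG2). Of 15046 genes tested, 644 (4.28%) had a higher response in HKC-8 and 755 (5.02%) a lower one. Within each line, 2138 genes (14.2%) rose and 1916 (12.7%) fell in HKC-8, while 1991 (13.2%) rose and 1759 (11.7%) fell in HepG2. These counts came from 1 fit that shared its estimate of spread between the lines. With each line fitted apart, 1522 rose and 1235 fell in HKC-8, and 2708 rose and 2621 fell in HepG2. The order of the lines was thus reversed. The spread between replicates (edgeR's biological coefficient of variation) was 0.135 in HKC-8 apart, 0.0733 in HepG2 apart and 0.109 in the joint fit. Numbers of calls in the 2 lines are not a measure of which line responded more. Most genes called in both lines moved the same way with no interaction called, namely 631 of 797 that rose in both and 678 of 690 that fell in both. Of the genes that rose in both, 122 rose more in HepG2 and 44 more in HKC-8. A further 91 genes rose in HKC-8 and fell in HepG2, and 62 did the reverse. Of the 644 higher responses in HKC-8, 321 belonged to genes that rose in HKC-8 with no call in HepG2 and 162 to genes that fell in HepG2 with no call in HKC-8. Of the 755 lower responses, 321 belonged to genes that rose in HepG2 alone and 220 to genes that fell in HKC-8 alone, a call in 1 line and not in the other being read here only together with the interaction. The counts of each gene list are to be read against the shares over all genes.

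**Figure D1:**
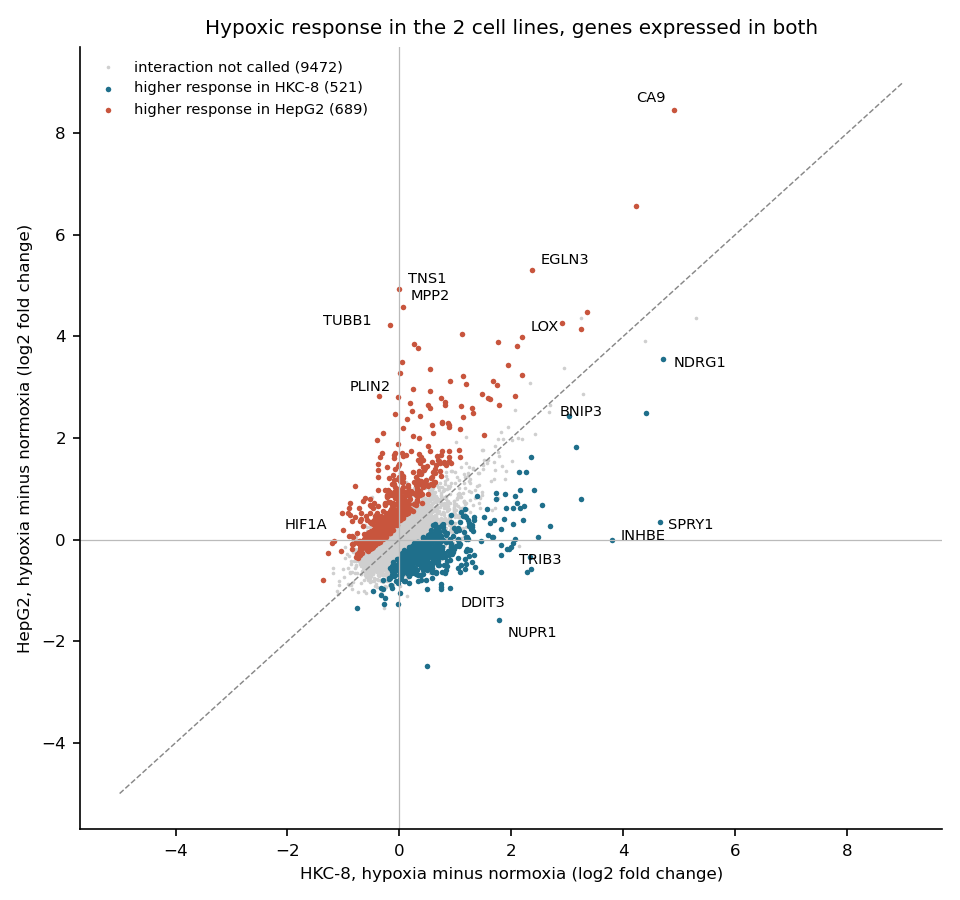
Log2 fold change in hypoxia in HKC-8 (horizontal axis) against that in HepG2 (vertical axis), with 1 point for each of the 10682 genes at a mean of at least 1 CPM in both lines; the dashed line marks equal responses. Points above the line and coloured red are the 689 genes called with a higher response in HepG2, such as CA9 and TNS1, and blue points below it are the 521 called with a higher response in HKC-8, such as SPRY1 and NUPR1.

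In HKC-8 same-numbered normoxic and hypoxic libraries deviated together, clearly so for replicates 2 and 3 (correlation across genes 0.668 and 0.614). For replicate 1 it was 0.203, and normoxic replicate 1 with hypoxic replicate 2 had 0.167. With the replicate number as a block, the interaction counts rose to 1363 and 1656, the opposite responses to 205 and 172, and the genes down in HKC-8 to 2944. Without normoxic HKC-8 replicate 3, the library whose omission changed the first count most, 1000 genes had a higher response in HKC-8. The 1759 falls in HepG2 became 1074, 1133 and 1154 without hypoxic HepG2 replicates 1, 2 and 3, and the 690 shared falls 397, 416 and 447 (1250 with the block). The counts of opposite responses and of lower responses also fell by over 1.5 times without single libraries, most of them HepG2, and the range over all 12 was 51 to 125 and 36 to 83 for the opposite responses.

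Promoter sequences are shown for 5 genes that stand for the patterns described in the following paragraphs, namely SPRY1 and TNS1 (among the largest differences in each direction), CA9 (raised in both lines, more in HepG2), KDM3A (raised alike) and ASNS (amino acid response, higher in HKC-8). Each run holds the 250 bases before a start site of the gene, the first that the RefSeq table gives (table build GRCh38.p14), 5′ to 3′ on the gene's own strand, and was located in GRCh37 by an exact match at 1 place. The places are chr4:124317700-124317949 (plus strand) for SPRY1, chr2:218874999-218875248 (minus) for TNS1, chr9:35673675-35673924 (plus) for CA9, chr2:86668244-86668493 (plus) for KDM3A and chr7:97501721-97501970 (minus) for ASNS. These are not the outermost starts for 3 genes: the runs of TNS1 and KDM3A lie wholly inside the span annotated in GRCh37, where 146 and 99 of their bases fall in exons of other transcripts of the gene, and 134 bases of the ASNS run do. Capitals mark ACGTG or GCGTG, the core of the hypoxia response element, read on either strand, in the first 4 genes. In ASNS they mark TGATGNAA, the element that binds ATF4 with a C/EBP factor.
SPRY1: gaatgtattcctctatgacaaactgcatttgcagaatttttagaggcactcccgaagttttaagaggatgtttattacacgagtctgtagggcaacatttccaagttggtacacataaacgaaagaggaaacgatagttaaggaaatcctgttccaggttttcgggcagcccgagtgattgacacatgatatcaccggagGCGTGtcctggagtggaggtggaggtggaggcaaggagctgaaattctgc
TNS1: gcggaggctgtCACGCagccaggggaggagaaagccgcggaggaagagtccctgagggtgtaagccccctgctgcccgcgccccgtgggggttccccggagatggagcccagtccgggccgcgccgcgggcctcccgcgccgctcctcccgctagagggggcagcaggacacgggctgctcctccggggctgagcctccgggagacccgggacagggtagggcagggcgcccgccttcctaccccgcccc
CA9: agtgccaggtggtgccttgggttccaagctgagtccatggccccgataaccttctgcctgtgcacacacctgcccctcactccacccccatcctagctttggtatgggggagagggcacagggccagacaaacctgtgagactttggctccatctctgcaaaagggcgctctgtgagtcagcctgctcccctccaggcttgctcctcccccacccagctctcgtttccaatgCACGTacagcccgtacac
KDM3A: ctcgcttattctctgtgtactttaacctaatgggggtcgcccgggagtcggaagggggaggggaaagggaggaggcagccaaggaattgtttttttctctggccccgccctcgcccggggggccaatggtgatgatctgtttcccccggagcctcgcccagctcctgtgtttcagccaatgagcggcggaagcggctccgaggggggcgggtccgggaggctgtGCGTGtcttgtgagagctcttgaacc
ASNS: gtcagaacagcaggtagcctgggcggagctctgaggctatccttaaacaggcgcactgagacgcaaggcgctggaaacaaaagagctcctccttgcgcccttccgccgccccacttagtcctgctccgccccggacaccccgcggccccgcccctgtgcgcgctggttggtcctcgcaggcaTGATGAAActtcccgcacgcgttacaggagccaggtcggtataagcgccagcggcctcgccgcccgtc

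The same letters were searched on both strands in all promoter windows of this length. ACGTG or GCGTG stood in 43.1% of 27305 promoters in the table and in 56.2% of the 10658 tested genes that had one. It stood in 56.7% of the 453 matched genes with a higher response in HKC-8 and in 57.6% of the 585 with a lower one, so that its share was close to that of all genes tested in both directions. By list it stood in 12 of 25 matched ATF4 targets (48%), 16 of 20 cholesterol genes (80.0%) and 13 of 23 glycolysis genes (56.5%). TGATGNAA stood in 3.19% of the table, in 1.53% of the tested genes, in 3.53% of those higher in HKC-8 and in 1.37% of those lower. In the list of ATF4 targets 2 of 25 matched promoters held it. TCACNCCAC, a sterol response element, stood in 0.875% of the table, in 0.835% of the tested genes and in 1 of the 20 cholesterol genes. These are matches of letters and not sites shown to be bound.

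The amino acid response rose in HKC-8, while in HepG2 more of its genes fell than rose. Of 31 tested ATF4 targets and amino acid response genes, 30 rose in HKC-8 and ATF5 fell, while in HepG2 6 rose and 11 fell. The interaction was called for 24, all higher in HKC-8, against 4.28% of all genes tested. None was lower by DESeq2, and 1 was lower at an unadjusted p under 0.05. The median difference was 1.16 log2, against 0.00 over all genes tested. The list's median response was 1.11 in HKC-8 and -0.18 in HepG2, and 11 of its genes moved in opposite directions. Its summed level was 3940, 4210 and 4710 CPM in normoxic HKC-8 and 8710, 8480 and 9190 in hypoxic HKC-8. In HepG2 it was 5840, 5830 and 6290 in normoxia and 6680, 6340 and 6710 in hypoxia, so that the rise in HKC-8 passed above the HepG2 level.

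Among the regulators, ATF4 itself rose in HKC-8 (log2 0.51) and fell in HepG2 (-0.33), with an interaction of 0.84 (adjusted p = 7.5e-05). TRIB3, a pseudokinase induced by and restraining ATF4, stood at 24.8, 25.9 and 28.5 CPM in normoxic HKC-8 and 116, 92.8 and 107 in hypoxia. In HepG2 it stood at 177, 184 and 213 in normoxia and 176, 152 and 189 in hypoxia. The HKC-8 groups did not overlap, the HepG2 groups did, and hypoxic HKC-8 remained below every HepG2 sample. The interaction was 2.15 ± 0.15 (SE, n = 3 per group, adjusted p = 2.79e-07). DDIT3, the stress factor CHOP, went from 12, 12.9 and 13.1 to 26.1, 16.5 and 28.7 CPM in HKC-8. In HepG2 it went from 14.2, 18.8 and 15.4 to 8.81, 7.89 and 8.24. The groups were apart in both lines and in opposite directions (interaction 1.86 ± 0.24, adjusted p = 0.00018). NUPR1, a small nuclear stress protein, likewise rose in HKC-8 (2.78, 2.26 and 9.45 to 14.3, 12.6 and 23.5 CPM) and fell in HepG2 (27.7, 30.9 and 27.9 to 9.98, 9.42 and 9.31).

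The enzymes of amino acid synthesis followed. ASNS, which makes asparagine, stood at 83.2, 99.8 and 238 CPM in normoxic HKC-8 and 454, 441 and 709 in hypoxia. In HepG2 it stood at 119, 126 and 142 in normoxia and 111, 111 and 119 in hypoxia. The HKC-8 groups were apart although normoxic replicate 3 was more than the other 2 normoxic replicates together, and the HepG2 groups met at 119 (interaction 2.11 ± 0.41, adjusted p = 0.00403). PSAT1 and PSPH, which act in serine synthesis, rose in HKC-8 by 1.36 and 1.05 and fell by 0.54 and 0.56 in HepG2. PHGDH, the first enzyme of that route, rose in HKC-8 by 1.05 and had a log2 difference of -0.01 in HepG2. CTH, which makes cysteine, MTHFD2, a mitochondrial folate enzyme, and SESN2, an inhibitor of mTORC1 signalling, rose in HKC-8 by 1.11, 0.92 and 1.20 and fell by 0.50, 0.24 and 0.48 in HepG2. PCK2, the mitochondrial enzyme that makes phosphoenolpyruvate, went from 40, 46.2 and 89.2 to 183, 191 and 246 CPM in HKC-8. In HepG2 it was 215, 220 and 215 in normoxia and 204, 196 and 206 in hypoxia, so that normoxic HKC-8 was low and hypoxic HKC-8 overlapped the HepG2 range.

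Among the amino acid transporters SLC7A11, the cystine carrier, went from 60.8, 73.8 and 97.1 to 217, 197 and 223 CPM in HKC-8 and from 117, 123 and 183 to 90.2, 89.3 and 91.3 in HepG2. Both pairs of groups were apart, in opposite directions (interaction 2.11 ± 0.23, adjusted p = 4.09e-05). SLC1A4, a carrier of neutral amino acids, rose in HKC-8 from 14, 13.4 and 23.2 to 62.1, 53.8 and 62.5 CPM, while HepG2 had a log2 difference of -0.30. SLC7A5, the large neutral amino acid carrier, rose in both lines and more in HKC-8 (0.77 and 0.28). Members that rose in both lines without a called interaction were DDIT4 (2.42 and 2.08), VEGFA (1.71 and 1.38), VLDLR (2.20 and 1.99) and SLC38A2 (0.41 and 0.51). Of these VEGFA had an adjusted p of 0.0975 and passed with the replicate block (0.04, and 0.0357 with the block in HKC-8 alone). It also passed in the fit of all 18 samples (0.0365) and without hypoxic HKC-8 replicate 2 (0.0135). INHBE, the inhibin βE subunit, which was not on the list, rose in HKC-8 from 0.783, 1.31 and 7.75 to 37.9, 28.8 and 72.5 CPM and remained at 26.5 to 31.2 in all 6 HepG2 samples.

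Normoxic HKC-8 replicate 3 had the highest level of the 3 normoxic HKC-8 libraries for 22 of the 31 ATF4 targets. Without it the interaction was called for 26 of them, so that the count was as large without this library. Of 20 aminoacyl-tRNA synthetases, which load tRNAs with amino acids, 9 had a higher response in HKC-8 and 3 a lower one. Over all genes tested the shares were 4.28% and 5.02%. AARS, the alanine enzyme, went from 389, 420 and 493 to 616, 574 and 646 CPM in HKC-8 and from 268, 255 and 293 to 204, 195 and 220 in HepG2. Neither line's groups overlapped (interaction 0.89 ± 0.13, adjusted p = 0.000466). CARS (0.91), WARS (0.88), YARS (0.83) and SARS (0.78) also responded more in HKC-8, whereas DARS (-0.59), RARS (-0.61) and KARS (-0.41) responded less.

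Genes of cholesterol synthesis responded more in HKC-8. Of 28 genes of the pathway and of SREBP control, 20 had a higher response in HKC-8 and none a lower one by edgeR (none at an unadjusted p under 0.05 and none by DESeq2 either). Over all genes tested the shares were 4.28% and 5.02% by edgeR. In HKC-8 20 rose and none fell (1 at an unadjusted p under 0.05 and 1 by DESeq2), in HepG2 2 rose and 17 fell, and 12 were called in opposite directions. The median difference was 0.92 log2, from a median of 0.47 in HKC-8 and -0.43 in HepG2. The summed level was 3610, 3560 and 3830 CPM in normoxic and 5540, 4650 and 4360 in hypoxic HKC-8. In HepG2 it was 4580, 4140 and 4440 in normoxia and 3520, 3230 and 3540 in hypoxia. Normoxic HepG2 was thus above normoxic HKC-8, and hypoxic HepG2 was below every sample of the other 3 groups.

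HMGCS1, which makes the HMG-CoA that enters the pathway, stood at 203, 212 and 271 CPM in normoxic HKC-8 and 459, 324 and 371 in hypoxia. In HepG2 it stood at 238, 177 and 244 in normoxia and 120, 107 and 117 in hypoxia. Levels in normoxia overlapped between the lines, and in hypoxia every HKC-8 sample was above every HepG2 sample (interaction 1.69 ± 0.20, adjusted p = 9.22e-05). MSMO1, a sterol demethylating oxidase, rose in HKC-8 from 123, 109 and 143 to 271, 172 and 192 CPM and fell in HepG2 from 271, 261 and 244 to 147, 133 and 146. LSS, which closes the sterol rings, rose from 103, 110 and 105 to 183, 177 and 139 and fell from 129, 113 and 121 to 80.1, 71.0 and 82.5. MVD (interaction 1.42), IDI1 (1.27), SQLE (1.07) and CYP51A1 (1.01), further steps of the route, were also called up in HKC-8 and down in HepG2.

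The 8 genes without a called interaction included 2 that rose in both lines, namely INSIG2, which holds SREBP in the endoplasmic reticulum (2.01 and 1.54), and SREBF1, which encodes SREBP1 (0.41 in each). SREBF2, which encodes SREBP2, was among the 20 and rose in HKC-8 (0.49) and had -0.10 in HepG2 (interaction 0.59, adjusted p = 0.003). Hypoxic HKC-8 replicate 1 had the highest level of its group for 20 of the 28 genes, and without it 18 had a higher response in HKC-8.

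**Figure D2:**
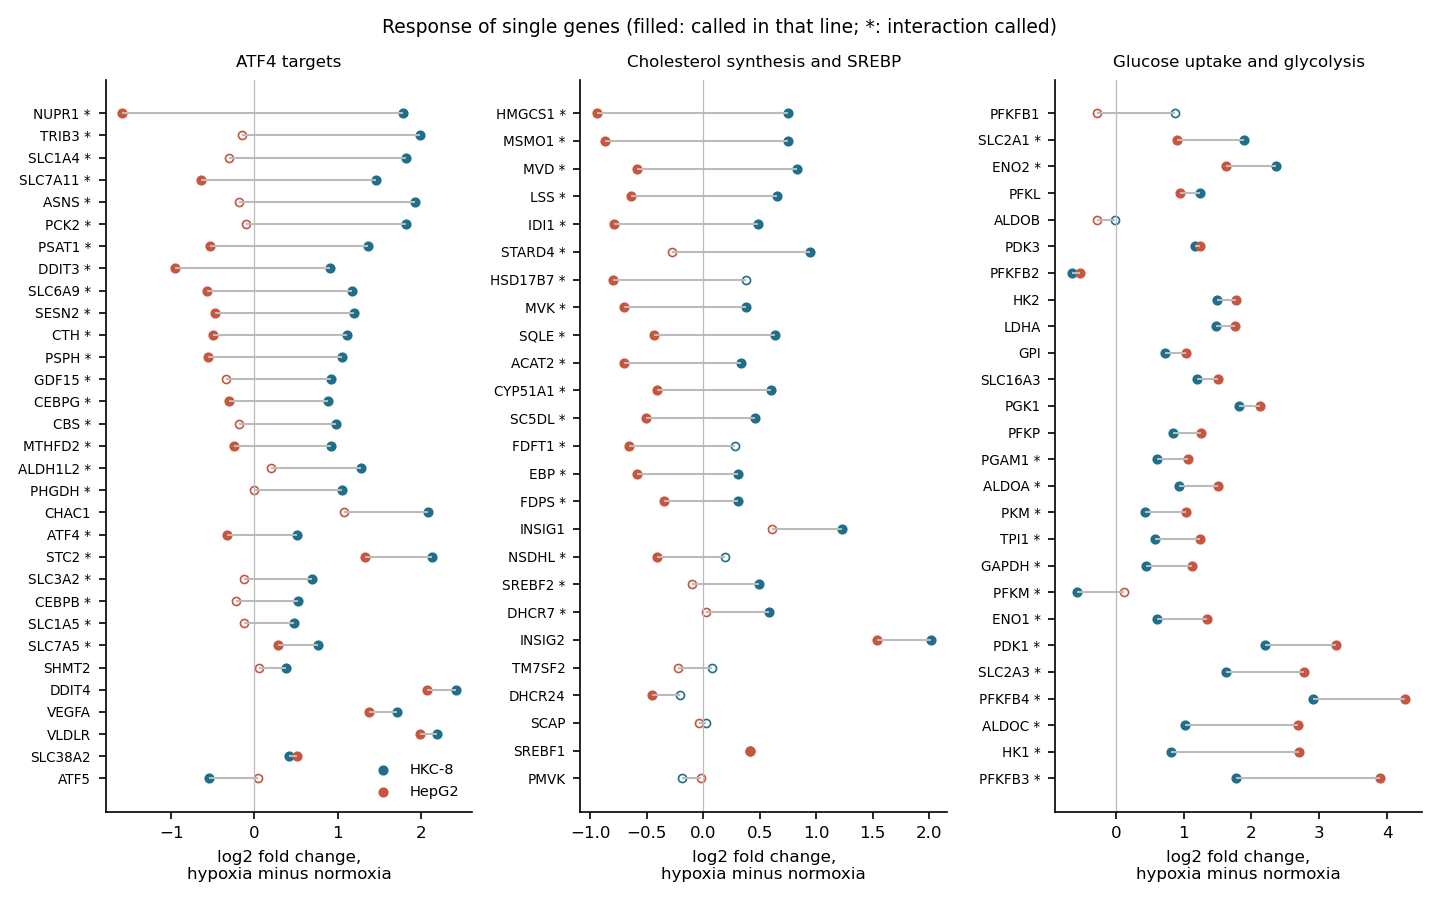
Log2 fold change in hypoxia of tested genes of 3 lists (3 genes of the second are not drawn), in HKC-8 (blue) and HepG2 (red); filled circles were called in that line and an asterisk marks a called interaction. In the first 2 panels blue lies to the right of red for most genes (24 of 31 and 20 of 28 called), and in the glycolysis panel red lies to the right for most (13 of 26 called).

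Fatty acid and triglyceride genes were mixed. Of 27 tested, 7 had a higher response in HKC-8 (11 with the replicate block) and AGPAT2 a lower one. Of all genes tested 4.28% responded more in HKC-8 and 5.02% less (1363 and 1656 of 15046 with the block), and the other lipid lists below are to be read against these shares. ACSL1, which activates fatty acids, fell in HepG2 from 80.4, 75.9 and 90.4 to 46.4, 42.5 and 51.5 CPM and stood in HKC-8 at 68.4, 66.6 and 62.3 in normoxia and 78.1, 66.7 and 66.0 in hypoxia, where the groups overlapped. LPIN1, a phosphatidate phosphatase, rose in HKC-8 from 133, 135 and 142 to 256, 171 and 196 and had a log2 difference of -0.29 in HepG2. AGPAT2, an acyltransferase of triglyceride synthesis, rose in HepG2 from 4.58, 3.78 and 3.79 to 15.9, 15.2 and 17.5. Of 17 lipid droplet proteins 4 responded less in HKC-8 and PNPLA3 more, though PNPLA3 was not called when any 1 of 4 libraries was left out (adjusted p up to 0.0569). PLIN2, which coats lipid droplets, went from 76.1, 80.9 and 72.8 to 108, 94.9 and 94.1 CPM in HKC-8 and from 218, 234 and 251 to 1300, 1160 and 1340 in HepG2. It rose in both lines, and hypoxic HKC-8 remained below normoxic HepG2 (interaction -2.06 ± 0.12, adjusted p = 4.74e-08). Of 29 genes of fatty acid oxidation 5 responded less in HKC-8, among them ECI2, an isomerase of that route, which fell in HKC-8 (-0.53) and had -0.04 in HepG2.

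Glucose uptake and glycolysis rose in both lines and more in HepG2. Of 26 genes 22 rose in each line, with a median response of 0.98 log2 in HKC-8 and 1.30 in HepG2. The interaction was called for 15, of which 13 were lower in HKC-8 and only SLC2A1 (0.98) and ENO2 (0.74) higher, with a median of -0.44. Of all genes tested 5.02% were lower and 4.28% higher. The summed level was 19800, 22100 and 18900 CPM in normoxic HKC-8 and 13400, 12900 and 13400 in normoxic HepG2. In hypoxia it was 34500, 38500 and 32500 in HKC-8 and 35300, 33900 and 36000 in HepG2. The lines were apart in normoxia and overlapped in hypoxia, so that HepG2 started lower and ended in the same range.

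PFKFB3, which makes the activator of phosphofructokinase, went from 87.4, 96.4 and 68.9 to 296, 325 and 240 CPM in HKC-8 and from 12.4, 12.6 and 14.5 to 197, 183 and 205 in HepG2. The lines were far apart in normoxia and hypoxic HKC-8 was still above hypoxic HepG2, although the rise was larger in HepG2 (interaction -2.12 ± 0.18, adjusted p = 2.96e-06). HK1, the hexokinase of most tissues, went from 248, 258 and 224 to 458, 450 and 384 in HKC-8 and from 3.33, 3.47 and 2.92 to 21.5, 19.3 and 22.3 in HepG2. PFKFB4, a relative of PFKFB3, reached 149 to 170 CPM in HKC-8 from 17.8 to 22.4, and 165 to 198 in HepG2 from 9.23 to 9.53. SLC2A3, the glucose carrier GLUT3, was the reverse in level: it went from 19.1, 15.5 and 21.3 to 71.4, 43.2 and 58.0 in HKC-8 and from 350, 361 and 408 to 2440, 2510 and 2670 in HepG2 (interaction -1.14 ± 0.21, adjusted p = 0.00268). The rise was thus larger in HepG2 although HepG2 already held more of it in normoxia. Steps such as PGK1 (1.82 and 2.12), LDHA (1.47 and 1.76) and HK2 (1.49 and 1.77) rose in both lines without a called interaction. PFKM, the muscle form of phosphofructokinase, fell in HKC-8 (-0.57) and had 0.12 in HepG2.

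Of 16 tested genes of glycogen metabolism 2 had a higher response in HKC-8 and 5 a lower one, against 4.28% and 5.02% of all genes tested. GYS1, the synthase, went from 52.5, 56.1 and 45.5 to 90.4, 106 and 87.9 CPM in HKC-8 and from 39.1, 37.2 and 37.6 to 187, 172 and 182 in HepG2. GBE1, the branching enzyme, went from 86.5, 84.9 and 73.4 to 198, 174 and 167 in HKC-8 and from 38.9, 33.8 and 42.5 to 211, 202 and 202 in HepG2. Both were lower in HepG2 than in HKC-8 in normoxia and higher in hypoxia, with interactions of -1.36 and -1.28. PGM1, which joins glycolysis to glycogen, rose more in HKC-8 (2.27 and 1.33, interaction 0.94, adjusted p = 0.00147).

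Of the oxygen sensors and HIF subunits, 3 of 11 tested responded less in HKC-8 and EPAS1 more, against 5.02% and 4.28% of all genes tested. HIF1A mRNA stood at 386, 368 and 342 CPM in normoxic HKC-8 and 165, 156 and 168 in hypoxia, and at 301, 292 and 373 and then 311, 313 and 323 in HepG2. It fell in HKC-8, where the groups were apart, and the HepG2 groups overlapped (interaction -1.13 ± 0.12, adjusted p = 4.41e-05). EPAS1 went from 71.4, 67.7 and 80.1 to 205, 148 and 161 in HKC-8 and from 227, 226 and 264 to 305, 295 and 336 in HepG2. It rose in both lines and more in HKC-8 (interaction 0.84 ± 0.16, adjusted p = 0.00308). EGLN3, a prolyl hydroxylase that is itself a HIF target, went from 1.63, 1.52 and 2.11 to 10.3, 8.38 and 8.65 in HKC-8 and from 1.44, 0.855 and 0.431 to 44.7, 30.8 and 32.8 in HepG2. HKC-8 was above HepG2 in normoxia (log2 0.94, adjusted p = 0.00757) and below it in hypoxia, with no overlap in either condition (interaction -2.93 ± 0.36, adjusted p = 0.000115). CITED2, which competes with HIF for its coactivator, went from 94.3, 94.2 and 90.8 to 129, 133 and 135 in HKC-8 and from 21, 19.2 and 17.5 to 124, 115 and 122 in HepG2, so that levels that were far apart came close in hypoxia. For ARNT (-0.26), VHL (0.26) and EGLN1 (-0.31) the interaction was not called, EGLN1 passing with the replicate block (adjusted p = 0.0457) or without normoxic HepG2 replicate 3 (0.0205).

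CA9, a carbonic anhydrase of the cell surface and a marker of HIF activity, stood at 6.77, 4.58 and 4.74 CPM in normoxic HKC-8 and 157, 185 and 143 in hypoxia. In HepG2 it stood at 0.41, 0.473 and 0.743 in normoxia and 189, 180 and 198 in hypoxia. The lines were apart in normoxia and overlapped in hypoxia, and the larger response of HepG2 (8.45 against 4.91, interaction -3.54 ± 0.26, adjusted p = 6.58e-07) went with a lower level in normoxia. Of the exonic bases of CA9 (chr9:35673925-35681156 in GRCh37) 35.7% overlap another annotated gene, ARHGEF39, so that its counts may hold or lose reads of that gene.

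Some of the enzymes that modify collagen responded more in HepG2. Of 16 prolyl and lysyl hydroxylases, lysyl oxidases and their partners, 7 had a lower response in HKC-8 (5 without normoxic HepG2 replicate 2), against 5.02% of all genes tested, and none a higher one by edgeR (none at an unadjusted p under 0.05 and none by DESeq2). LOX, which cross-links collagen, went from 31.0, 33.9 and 29.9 to 153, 140 and 139 CPM in HKC-8 and from 22.9, 20 and 25.6 to 358, 360 and 359 in HepG2. All 4 groups were apart, with HepG2 the lowest in normoxia and the highest in hypoxia (interaction -1.79 ± 0.12, adjusted p = 2.59e-07). LOXL2 went from 172, 174 and 175 to 383, 397 and 411 in HKC-8 and from 4.81, 6.08 and 7.24 to 44.4, 47.3 and 61.0 in HepG2, which remained below HKC-8 throughout. PLOD2, which hydroxylates collagen lysines, rose from 632, 550 and 578 to 1140, 997 and 1130 in HKC-8 and from 228, 179 and 204 to 991, 975 and 891 in HepG2. P4HA1 (1.76 and 1.99) and P4HA2 (1.59 and 1.56), the prolyl hydroxylase subunits, rose in both lines without a called interaction.

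Among angiogenic and vasoactive factors 6 of 32 responded less in HKC-8 (18.8%, against 5.02% of all genes tested) and 2 more (6.25%, against 4.28%). ADM, the vasodilator adrenomedullin, went from 20.3, 22.9 and 11.9 to 59.4, 66.6 and 58.1 CPM in HKC-8 and from 7.48, 7.72 and 8.32 to 61.7, 63.3 and 69.7 in HepG2. The normoxic groups were apart and the hypoxic groups overlapped. ADM2, its relative, rose in HKC-8 from 6, 6.24 and 11.2 to 32.1, 26.4 and 32.8, with a log2 difference of -0.18 in HepG2 (interaction 2.14 ± 0.29, adjusted p = 0.000307). VEGFA, the main vessel growth factor, went from 36.1, 37.4 and 38.7 to 134, 107 and 128 in HKC-8 and from 67.1, 76.2 and 71.5 to 194, 185 and 180 in HepG2. It was higher in HepG2 in both conditions and rose in both lines.

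**Figure D3:**
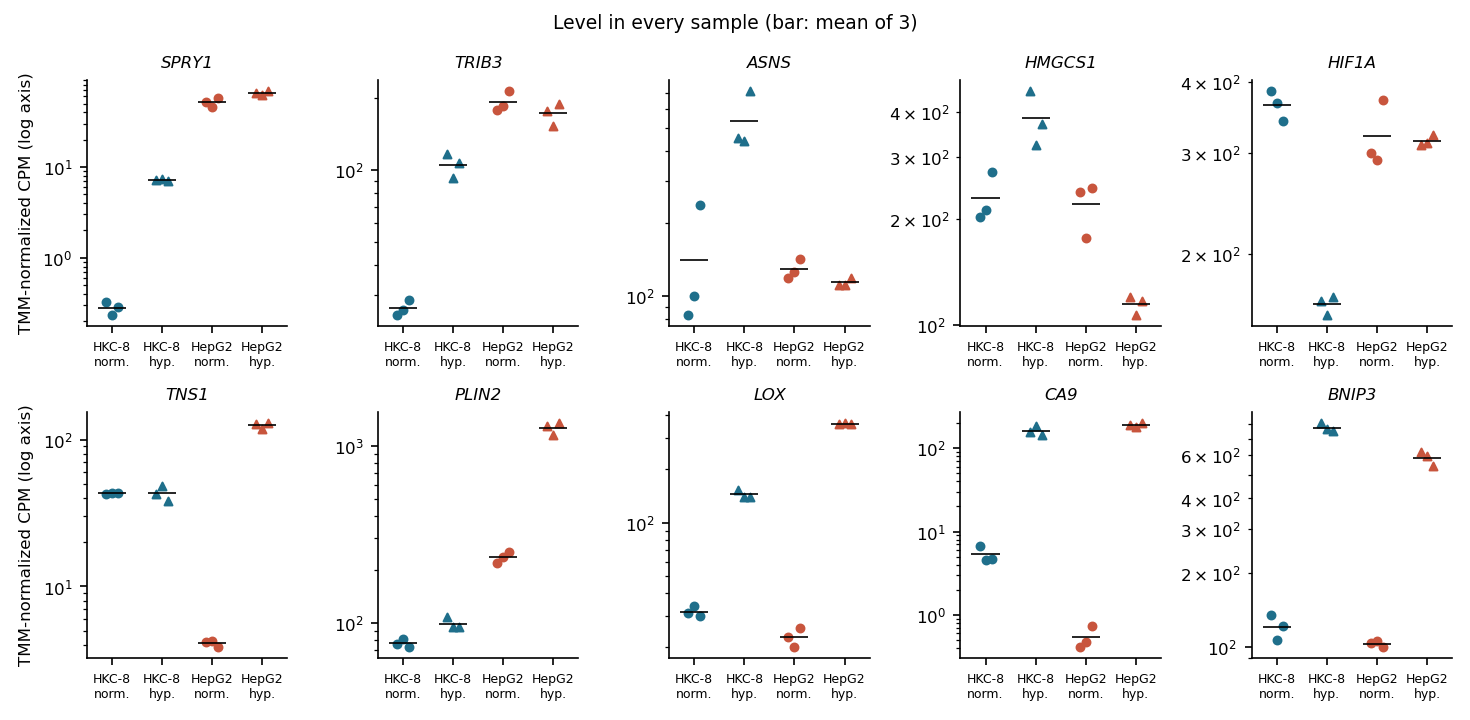
Level of 10 genes in every sample in TMM-normalized CPM on log axes of their own, with circles for normoxia, triangles for hypoxia, blue for HKC-8, red for HepG2 and a bar for the mean of 3. SPRY1, TRIB3 and ASNS rise in HKC-8 and differ little between the HepG2 groups, TNS1 rises in HepG2 alone, HMGCS1 moves in opposite directions, HIF1A falls in HKC-8, and CA9 ends in nearly the same range in both lines.

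Higher responses in HKC-8 were not confined to these pathways. SPRY1, a feedback inhibitor of receptor tyrosine kinase signalling (chr4:124317950-124324915 in GRCh37), stood at 0.325, 0.235 and 0.287 CPM in normoxic HKC-8 and 7.26, 7.35 and 6.97 in hypoxia. In HepG2 it stood at 52.0, 46.2 and 57.0 in normoxia and 65.6, 62.2 and 68.4 in hypoxia. HKC-8 rose by 4.66 log2 from almost nothing and remained below every HepG2 sample, and HepG2 rose by 0.34 (interaction 4.32 ± 0.17, adjusted p = 3.59e-10). PRSS8, the membrane protease prostasin that activates the epithelial sodium channel, went from 2.66, 2.19 and 4.85 to 28.6, 30.2 and 34.1 in HKC-8 and from 1.82, 1.85 and 2.04 to 3.47, 3.40 and 3.07 in HepG2. SYTL2, which tethers secretory vesicles, rose from 3.84, 5.72 and 4.18 to 28.3, 20.3 and 21.6 in HKC-8 and had a log2 difference of -0.57 in HepG2. NDRG1, a widely used marker of hypoxia with a smaller difference, rose in both lines and more in HKC-8, from 22.6, 23.3 and 36.5 to 891, 566 and 705, against 41.4, 40.8 and 50.6 to 550, 471 and 547 in HepG2 (interaction 1.15 ± 0.25, adjusted p = 0.00891). The HKC-8 groups were apart for all 4 genes.

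Several genes rose in HepG2 with a called interaction and a log2 difference under the threshold in HKC-8. TNS1, the focal adhesion protein tensin, stood at 42.8, 43.5 and 43.3 CPM in normoxic HKC-8 and 42.4, 48.6 and 38.5 in hypoxia, and went from 4.19, 4.25 and 3.86 to 128, 119 and 129 in HepG2. HKC-8 lay between the HepG2 groups, apart from both (interaction -4.94 ± 0.13, adjusted p = 3.71e-12). TUBB1, a β-tubulin known from platelets, had 2.69 to 3.63 in all 6 HKC-8 samples and went from 3.56, 3.78 and 3.28 to 65.7, 63.3 and 69.7 in HepG2, so that the lines overlapped in normoxia. HAVCR1, the kidney injury molecule KIM-1, had 17.2 to 25.4 in HKC-8 and went from 1.09, 1.33 and 1.37 to 16.9, 17.6 and 20.1 in HepG2, reaching the HKC-8 range. TMCC1, a membrane protein of the endoplasmic reticulum, had 9.45 to 10.9 in HKC-8 and went from 31.1, 30.2 and 37.8 to 318, 315 and 339 in HepG2. APOL1, an apolipoprotein of trypanosome defence, went from 38.5, 36.9 and 32.8 to 232, 223 and 245 in HepG2 and had a log2 difference of 0.19 in HKC-8 (interaction -2.51 ± 0.17, adjusted p = 1.92e-07).

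Genes of various kinds were also called in opposite directions. PPARG, a fat-sensing nuclear receptor, fell in HKC-8 from 0.626, 0.544 and 0.585 to 0.227, 0.400 and 0.316 CPM and rose in HepG2 from 17.8, 18.2 and 19.8 to 38.6, 35.8 and 42.4. ONECUT2, which was 1 of 2 such genes among 22 liver-enriched factors, rose in HKC-8 from 11.5, 13.2 and 10.9 to 18.3, 18.6 and 16.6 and fell in HepG2 from 26.5, 27.4 and 33.1 to 16.7, 20 and 19.2. Groups were apart in both lines for both genes. TNFRSF19, a receptor of the TNF family, fell in HKC-8 from 41.2, 40.2 and 38.1 to 25.7, 25.3 and 25.2 and rose in HepG2 from 190, 188 and 181 to 309, 324 and 312. ARHGAP18, a GTPase-activating protein, fell from 33.2, 35.5 and 39.5 to 18.5, 18.9 and 20.7 and rose from 277, 266 and 274 to 425, 427 and 408. HepG2 was the higher line in every sample for these 2 genes, and no groups overlapped. CDKN1A, the cell cycle inhibitor p21, rose in HKC-8 from 17.0, 12.8 and 14.7 to 34.3, 22.5 and 19.4 and fell in HepG2 from 186, 178 and 204 to 119, 111 and 134. Of 28 p53 targets, 7 responded more in HKC-8 (14 with the replicate block, and 4 without hypoxic HKC-8 replicate 1). Of all genes tested 4.28% did (1363 of 15046 with the block, and 480 genes without hypoxic HKC-8 replicate 1). Of the 7 targets 2, SESN2 and GDF15, were also on the ATF4 list.

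Genes that answered alike included known HIF targets. BNIP3, a mitophagy receptor, went from 135, 106 and 121 to 807, 766 and 755 CPM in HKC-8 and from 104, 105 and 99.6 to 619, 596 and 544 in HepG2. KDM3A, a histone H3 lysine demethylase, went from 66.2, 60.5 and 69.0 to 232, 205 and 225 in HKC-8 and from 65.0, 59.5 and 67.6 to 223, 212 and 202 in HepG2. For KDM3A the lines overlapped in both conditions, and the difference in response was 0.03 ± 0.11. P4HA2 (0.03 ± 0.10), FUT11, a fucosyltransferase (0.05 ± 0.13), and KDM4B, another histone demethylase (0.05 ± 0.13), had intervals of the difference within 0.5 log2 of 0. In all, 21 genes changed at least 2-fold in both lines with such an interval, and all 21 rose.

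Among the lists that fell in both lines, ribosome biogenesis genes, which build ribosomal subunits in the nucleolus, fell for 53 of 67 in HKC-8 and 18 in HepG2. Of all genes tested 12.7% and 11.7% fell. By the interaction 2 of the 67 (2.99%) were lower in HKC-8, which is under the 5.02% of all genes tested. Replicate 2 was the highest library of its group for 59 of the 67 in normoxic and for 63 in hypoxic HKC-8. The summed level was 15300, 16300 and 11900 CPM in normoxic HKC-8 and 10800, 12400 and 10800 in hypoxic HKC-8, where normoxic replicate 3 lay below hypoxic replicate 2. The counts depended on single libraries. In HKC-8 35 and 30 genes fell without normoxic replicates 1 and 2, and 30 and 32 without hypoxic replicates 1 and 3, while in HepG2 9 to 12 fell without any 1 HepG2 library. By the interaction 21 were lower without normoxic HKC-8 replicate 3 and 9 without hypoxic replicate 2, beside 890 and 932 genes in all. With the replicate block 61 fell in HKC-8 and 30 in HepG2, and 20 were lower by the interaction. These stand beside 2944, 2637 and 1656 of the 15046 genes tested. POLR1E, a subunit of RNA polymerase I, fell in HKC-8 from 109, 121 and 80.6 to 48.6, 54.8 and 47.3 CPM with a log2 difference of -0.23 in HepG2.

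Mitochondrial ribosomal proteins fell for 42 of 75 in HKC-8 and 36 in HepG2, where 12.7% and 11.7% of all genes tested fell. The interaction was higher for 2 and lower for 3 of them (2.67% and 4.0%), which is under the shares over all genes. Leaving out single libraries gave 27 to 55 falls in HKC-8 (27 without normoxic replicate 2) and 19 to 42 in HepG2 (19 without normoxic replicate 2, and 22 and 21 without hypoxic replicates 1 and 2). Of 34 heat shock proteins, which keep other proteins folded, 19 fell in HKC-8 (12 without normoxic replicate 1) and 10 in HepG2, against the same shares of all genes. By the interaction 5 responded less in HKC-8 (11 with the block, and 3 to 8 without single libraries). Of all genes tested 5.02% did (1656 of 15046 with the block). CRYAB, a small heat shock protein, fell in HKC-8 from 66.8, 65.3 and 76.6 to 49.6, 51.7 and 42.9 and rose in HepG2 from 3.33, 2.88 and 3.45 to 5.89, 4.41 and 5.20. Members of the HSP70 and HSP90 families share near-identical stretches, so that single counts among them are uncertain.

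Of 77 respiratory chain and ATP synthase genes 13 fell in HKC-8 and 27 in HepG2, where 12.7% and 11.7% of all genes tested fell, and no interaction was called by edgeR (5 higher and 6 lower at an unadjusted p under 0.05, and 1 each way by DESeq2). Hypoxic HKC-8 replicate 2 had the highest level of its group for 72 of the 77 genes and normoxic HepG2 replicate 2 for 57. Without the former, 29 fell in HKC-8 and 5 had a lower response in HKC-8. Without the latter, or without hypoxic HepG2 replicate 2, 16 fell in HepG2. With the block 30 of the 77 fell in HKC-8 and 39 in HepG2, beside 2944 and 2637 of the 15046 genes tested.

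**Figure D4:**
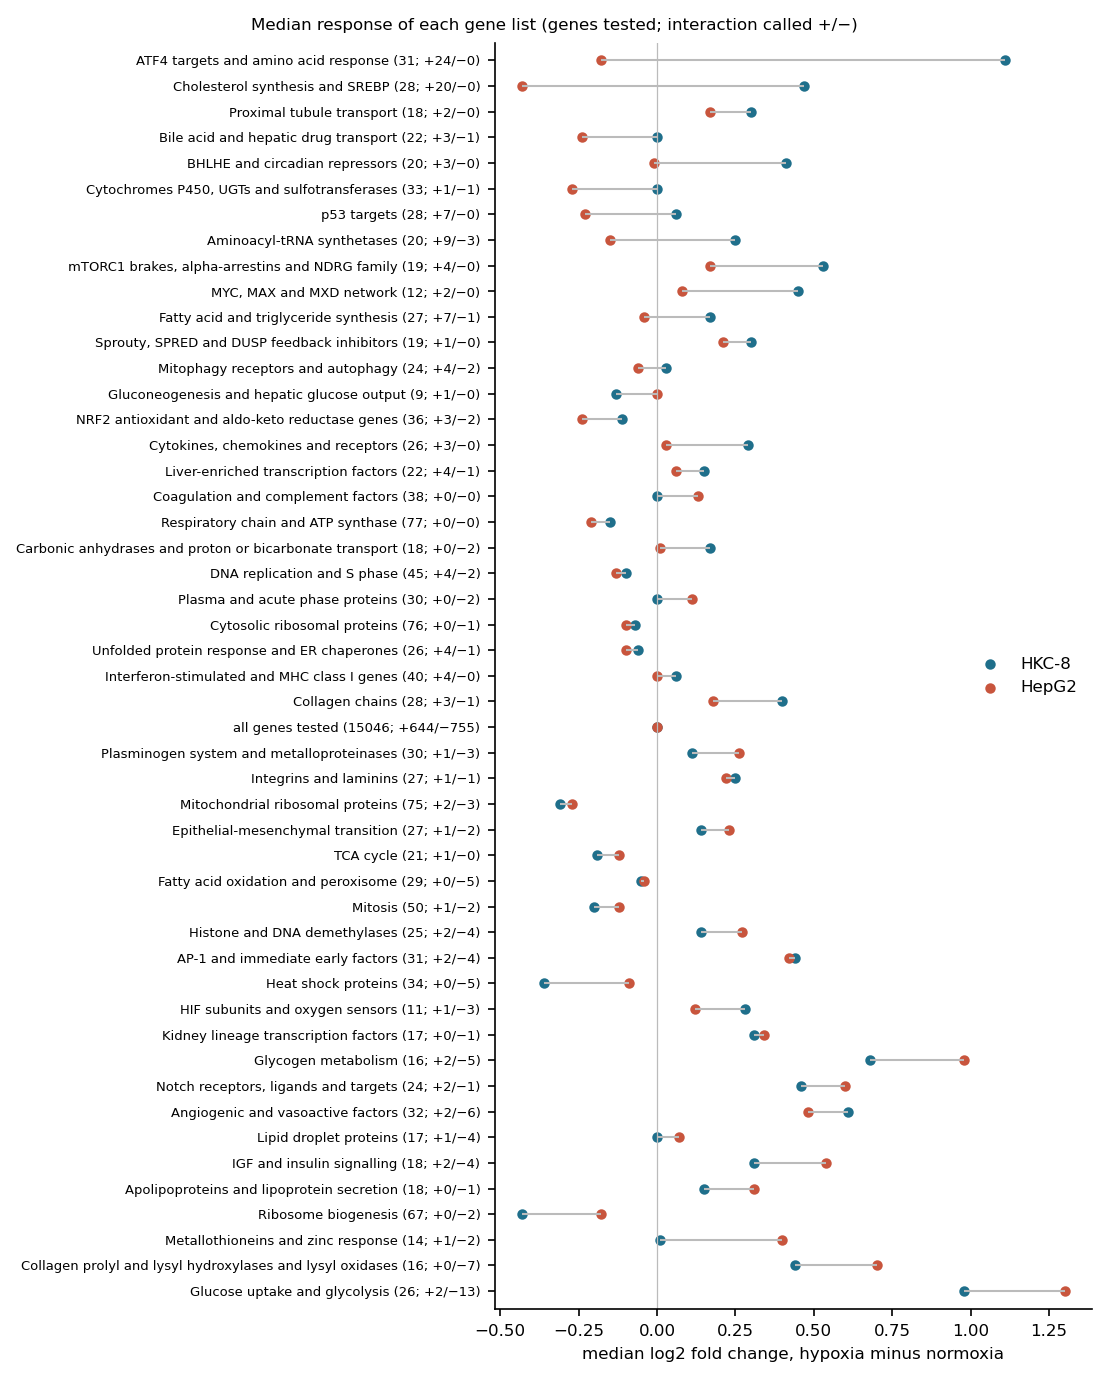
Median log2 fold change in hypoxia of the tested genes of each of 48 lists and of all genes tested, in HKC-8 (blue) and HepG2 (red), ordered by the median interaction; labels give the genes tested and the interactions called in each direction. The lists of ATF4 targets and cholesterol synthesis stand at the top, with medians of 1.11 and -0.18 and of 0.47 and -0.43.

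Many liver genes were expressed in HepG2 and not in HKC-8. Of 30 plasma and acute phase proteins, 1 was expressed in both lines, and in HepG2 6 rose and 3 fell. These counts lie near the shares of all genes tested in HepG2, of which 13.2% rose and 11.7% fell. CP, the copper oxidase ceruloplasmin, rose by 1.90 log2, TF, the iron carrier transferrin, by 0.98 and AHSG, fetuin-A, by 0.82, whereas HP, haptoglobin, and HPX, hemopexin, fell (-0.72 and -0.62). Line-restricted genes were those at a mean of at least 1 CPM in 1 line, over normoxia and hypoxia together, and under 0.1 CPM in the other, so that an induced gene could enter through its hypoxic level alone. RNF183, a ubiquitin ligase, went from 0.0912, 0 and 0.24 to 5.46, 4.49 and 5.04 CPM in HepG2 and had no count in any HKC-8 sample. C1QL1, a secreted C1q-like protein, went from 4.64, 3.72 and 3.64 to 36.7, 42.4 and 30.6 in HKC-8 and did not exceed 0.239 in HepG2. The interaction was not called by edgeR for either gene and passed for C1QL1 by DESeq2 (adjusted p = 0.0139), by limma voom (0.0386) and without hypoxic HepG2 replicate 1 (0.0276), and for RNF183 by limma voom (0.00855).

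The lines differed in normoxia at most genes, 6078 (40.4%) being higher in HKC-8 and 6426 (42.7%) higher in HepG2. A class set by the same normoxic samples that enter the response is not independent of it. The classes were therefore set by 1 normoxic replicate alone, at 1 CPM, and the responses were fitted in the other 2 replicates.

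With the class set by replicate 1, 1.66% of the 1384 genes expressed only in HepG2 had a higher response in HKC-8 and 0.361% a lower one. Of the 980 genes expressed only in HKC-8, 0.102% had a higher response in HKC-8 and 1.53% a lower one, and of the 10590 genes expressed in both the shares were 0.68% and 0.888%. The sizes of these shares depended on the replicate that set the class. With replicate 2 they were 3.24% and 0.72% for HepG2 only, 0.611% and 2.95% for HKC-8 only and 2.43% and 3.06% for both. With replicate 3 they were 6.93% and 1.08%, 2.62% and 3.66%, and 5.54% and 7.77%, so that the HKC-8-only shares lay near each other and both were below those of genes in both lines. Within each one-line class the larger share was that of higher responses in the line with the lower normoxic level, for each of the 3 replicates and with replicate 1 at 0.5 or 2 CPM. A gene under 1 CPM in a line leaves little room for a called fall there, and a separate replicate for the class does not remove this limit. With the class set by replicate 1, genes expressed only in HepG2 had 80 called rises and 3 falls in HKC-8. Genes expressed only in HKC-8 had 49 called rises and 2 falls in HepG2. The part of this limit in the pattern was not tested, and the pattern is given as a description with no test.

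**Figure D5:**
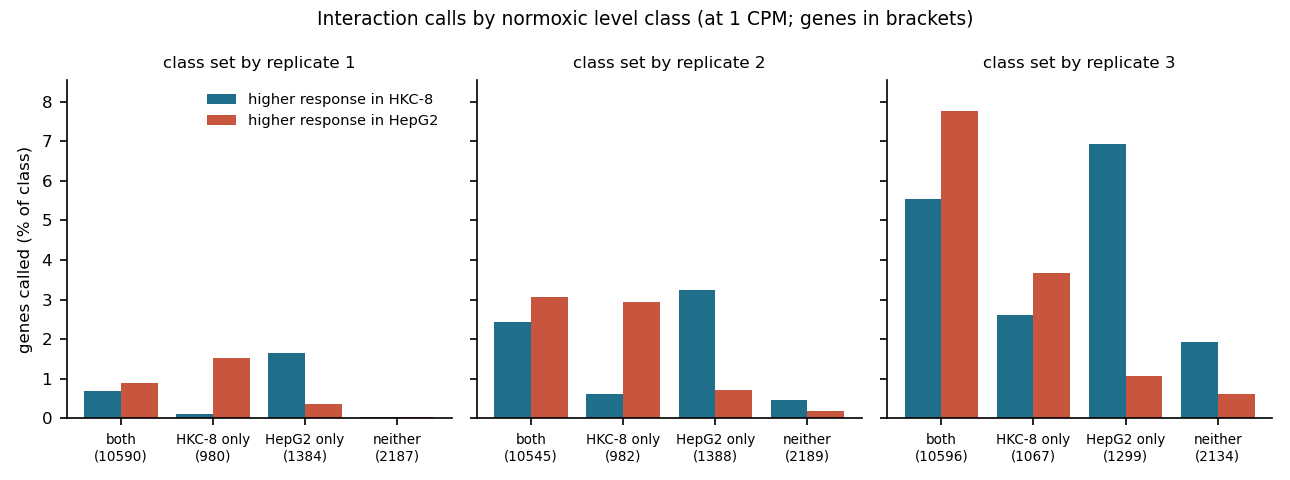
Percentage of genes (vertical axis) called with a higher response in HKC-8 (blue) or in HepG2 (red) by normoxic class at 1 CPM (horizontal axis, number of genes in brackets), with the class set by 1 replicate and the response fitted in the other 2 replicates, in 3 panels. Genes expressed only in HepG2 show the taller blue bar and genes expressed only in HKC-8 the taller red bar in all 3 panels.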

How the data were processed

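PolyA+ RNA was sequenced from strand-marked ScriptSeq v2 libraries of HKC-8 and HepG2 cells grown in DMEM with serum, hypoxia being applied in a workstation. The authors deposited raw gene counts per sample, made by HTSeq 0.5.4p3 from TopHat2 2.0.8b and Bowtie 1.0.0 alignments to GRCh37 with UCSC genes, after trimming by Trim Galore 0.3.3, per the submitters' processing notes. HTSeq was run in its strict intersection mode, which counts a read for a gene that covers all of it and leaves out reads that 2 genes cover fully, and the use of strand in counting is not given in the sources used here. The HKC-8 libraries were deeper (depths are in the report), which gives low genes a smaller counting error in that line.

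Counts were read as deposited. Genes were kept by filterByExpr, scaled by TMM and fitted by edgeR 4.0.16 (R 4.3.3, glmQLFit and glmQLFTest) in 1 model of 12 samples and 4 groups, and p-values were adjusted by Benjamini-Hochberg over 15046 of 23106 genes, with calls under 0.05. SE is the size of the log2 fold change over the square root of F. Genes expressed in both lines had a mean of at least 1 CPM in each. On simulated data of 14939 genes with 200 changed interactions, 48.5% were recovered at a log2 difference of 0.6, 88.0% at 1 and 97.0% at 1.5. False calls were 6.73%, 4.86% and 4.90%. The changed genes were all at 1 CPM or more in both lines, and oxygen had no other effect. Samples were drawn independently, with 1 spread per gene for both lines. The rates were thus not measured for genes low in a line, for lines of unequal spread or for replicates that deviate together.

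Same-numbered normoxic and hypoxic libraries deviated together in HKC-8 (r across 12616 genes, 0.203, 0.668 and 0.614 for replicates 1, 2 and 3), and in HepG2 less so (0.254, 0.039 and 0.230), so that a fit with the replicate number as a block was run in addition. In HKC-8 normoxic replicate 1 with hypoxic replicate 2 had r = 0.167, so that the pairing of replicate 1 was less clear than that of replicates 2 and 3. The replicate numbers come from the labels, which do not say what they share. No libraries of a group agreed within sampling noise.

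Named genes were the 10 largest interactions in each direction among genes expressed in both lines whose samples did not overlap in the more responsive line, the 8 strongest opposite responses in each direction, the 8 largest alike responses, the 5 largest line-restricted responses per line, up to 4 called members of each of 48 gene lists and 8 genes of the HIF pathway. Other list members were named after their values were seen. Members and lists were chosen with earlier results of these data known. Promoters came from the RefSeq table and were placed by exact match. Alternatives were DESeq2 1.42.0, limma 3.58.1 (voom with group weights), other scaling, filters, sample sets and depth, and each library left out. The 6 samples of another line were used only in an 18-sample fit. Some genes are not reported here.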

Additional observations from a re-analysis of the deposited data

Results flagged for a closer look

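The difference between the lines was tested as an interaction, which called 644 genes with a higher and 755 with a lower response in HKC-8. Genes called up in HKC-8, down in HepG2 and for the interaction included NUPR1 (3.38 log2), DDIT3 (1.86), MSMO1 (1.62), NTN4, a laminin-related netrin (1.74), and SPTB, a spectrin (2.08). The same held for MLXIPL, the glucose-sensing factor ChREBP (3.32), CYP4F12 (3.60) and LINC00854 (3.62), whose levels in HKC-8 were 0.0124 to 0.315, 0 to 0.0609 and 0 to 0.0924 CPM, where 3 counts were worth 0.0308 to 0.0378 CPM. With HKC-8 thinned to the depth of HepG2, CYP4F12 (adjusted p = 0.101) and LINC00854 (0.0522) no longer passed, and CYP4F12 also failed without any 1 of 7 libraries. CYP4F12 has close relatives, and 23.0% of the exonic bases of SPTB overlap PLEKHG3, so that both counts are uncertain.

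Genes called down in HKC-8, up in HepG2 and for the interaction included PPARG (-1.94), ATOH8, a helix-loop-helix factor (-1.85), NES, the filament protein nestin (-1.61), DOK1, a docking adaptor (-1.58), ARHGAP18 (-1.52), TNFRSF19 (-1.41), TM4SF1, a tetraspanin-like surface protein (-1.36), and TMEM92 (-2.15). TM4SF1 went from 4.54, 6.68 and 5.61 to 2.81, 4.22 and 3.07 CPM in HKC-8 and from 533, 562 and 600 to 855, 856 and 914 in HepG2. NES went from 5.48, 4.99 and 7.49 to 3.95, 3.04 and 2.73 in HKC-8 and from 69.2, 67.2 and 90.2 to 109, 121 and 144 in HepG2. Groups of 3 samples are too small for a test of single outlying samples, and none was run.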

How the results depend on the processing

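With the replicate block the interaction called 1363 genes higher and 1656 lower in HKC-8 (1260 and 1518 with the block in HKC-8 alone, added after seeing the data, and 1010 and 1209 in the fit of all 18 samples). The block gave 2944 genes down in HKC-8 (1235 with HKC-8 fitted apart), 205 up in HKC-8 and down in HepG2 (180 with the block in HKC-8 alone), 172 in reverse (146, and 107 in the 18-sample fit) and 1250 down in both (1187). It also gave 11 fatty acid genes (11) and 14 p53 targets (13, and 12 in the 18-sample fit). The block ended no call of a named gene. With the normoxic class set by replicate 2, the shares with a higher and a lower response in HKC-8 were 2.43% and 3.06% for genes in both lines, 0.611% and 2.95% for HKC-8 only, and 3.24% higher for HepG2 only. Set by replicate 3 they were 5.54% and 7.77%, 2.62% and 3.66%, and 6.93% and 1.08%, and at 0.5 CPM 0.596% of HKC-8 only were lower.

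Leaving out each library in turn gave 430 to 1000 genes higher and 481 to 932 lower in HKC-8, 1488 to 2578 up and 1247 to 2085 down in HKC-8, 1374 to 2191 up and 1074 to 2097 down in HepG2, 5889 to 6088 and 6250 to 6601 in normoxia. Opposite responses ranged over 51 to 125 and 36 to 83, shared rises over 617 to 907 and shared falls over 397 to 789. The lists ranged over 22 to 26 (ATF4 targets), 18 to 22 (cholesterol), 9 to 10 (tRNA synthetases), 12 to 15 (glycolysis), 5 to 8 (collagen enzymes), 5 to 9 (fatty acids) and 4 to 10 (p53 targets). Counts moved by over 1.5 times without the libraries named here. Higher responses numbered 1000 without normoxic HKC-8 replicate 3, and lower ones 492 without normoxic HepG2 replicate 2, 481 without hypoxic HepG2 replicate 1 and 501 without hypoxic replicate 3. Genes down in HKC-8 numbered 1264 and 1247 without its normoxic or hypoxic replicate 1. Without hypoxic HepG2 replicates 1, 2 and 3 in turn, 1074, 1133 and 1154 genes fell in HepG2, 397, 416 and 447 in both lines, 60, 58 and 51 moved up in HKC-8 and down in HepG2, and 36, 41 and 36 the reverse. Without normoxic HepG2 replicate 1 the opposite responses numbered 55 and 38, without its replicate 2 the reverse numbered 37, and without normoxic HKC-8 replicate 1 it numbered 40. Without hypoxic HKC-8 replicate 1, 4 p53 targets were called. The cause of these shifts was not tested. Other scaling shifted the median response of all genes by at most 0.013 log2 in size. The line-restricted PRUNE2 (-0.88, not called) was 1.51 by limma voom and 0.36 by DESeq2. Among genes without a called interaction, KDM3A (-0.02 to 0.10), P4HA2 (-0.01 to 0.14), C4orf3 (-0.11 to 0.07) and ECM2 (-0.18 to 1.47) changed sign when a library was left out. DESeq2 left both the call and the sign of 176 of 180 named genes as they were. By DESeq2 3 others gained a call and 1, PRUNE2, changed sign without a call in either fit. Thinning HKC-8 to the depth of HepG2 left 175 as they were. Leaving out single libraries left both call and sign of 155 to 176 genes as they were. It ended 2 to 24 calls, the most without hypoxic HepG2 replicate 1 or 3. Thinned so, CYP4F12 and LINC00854, both near 0 in HKC-8, lost their calls and MLXIPL kept it (adjusted p = 0.003).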

Other observations

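By edgeR 3 of 20 circadian genes, 4 of 19 mTORC1 brakes, alpha-arrestins and NDRG genes and 2 of 12 genes of the MYC network had a higher response in HKC-8, against 4.28% of all genes tested. None had a lower one by edgeR, against 5.02% (0, 2 and 1 at an unadjusted p under 0.05, and 0, 1 and 0 by DESeq2). With the replicate block 6 of each list were higher and 0, 2 and 1 lower, beside 1363 higher and 1656 lower of the 15046 genes tested. Without normoxic HKC-8 replicate 3, 7 of the 19 were higher, beside 1000 genes in all. RORA, a nuclear receptor of the clock, went from 0.169, 0.186 and 0.144 to 4.04, 2.73 and 3.94 CPM in HKC-8 and from 7.18, 6.32 and 6.74 to 40.5, 39.3 and 34.9 in HepG2. It rose in both lines with all 4 groups apart. Hypoxic HKC-8 remained below normoxic HepG2, and the response was higher in HKC-8 (interaction 1.91 ± 0.26, adjusted p = 0.000307). ARRDC3, an alpha-arrestin, rose in HKC-8 from 13.6, 10.2 and 21.2 to 65.0, 33.4 and 85.9 and had a log2 difference of -0.07 in HepG2 (interaction 2.10 ± 0.39, adjusted p = 0.0031). MYC, the growth factor-responsive transcription factor, rose in HKC-8 from 150, 174 and 122 to 242, 237 and 233, while the HepG2 groups overlapped (interaction 0.74 ± 0.14, adjusted p = 0.0036). MLXIPL, the other of the 2 called genes of the MYC network, stood at 0.0124 to 0.315 CPM in HKC-8, where 3 counts were worth 0.0308 to 0.0378 CPM.

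Of 36 NRF2 antioxidant and aldo-keto reductase genes, 3 had a higher response in HKC-8 (8.33%, against 4.28% of all genes tested) and 2 a lower one (5.56%, against 5.02%). With the block these were 9 and 5, beside 1363 and 1656 of the 15046 genes tested, and 5 were higher without hypoxic HKC-8 replicate 3 and 4 lower without normoxic HepG2 replicate 3. The 3 were SLC7A11 (2.11), ABCC3, a drug and conjugate exporter (2.42), and TXNRD1, thioredoxin reductase (0.52). HMOX1, heme oxygenase, fell in HKC-8 from 8.08, 8.69 and 9.86 to 5.01, 5.35 and 4.45 CPM and had a log2 difference of 0.08 in HepG2 (interaction -0.92 ± 0.14, adjusted p = 0.000616). GPX3, the secreted glutathione peroxidase, fell in HKC-8 from 12.5, 13 and 14.5 to 10.7, 11.2 and 8.76 and rose in HepG2 from 130, 128 and 112 to 259, 239 and 232. The groups were apart in both lines. ZFP36, which destabilises cytokine mRNA, rose in HepG2 from 8.89, 9.11 and 7.86 to 26.8, 24.3 and 29.1 and had a log2 difference of -0.34 in HKC-8 (interaction -1.97 ± 0.19, adjusted p = 1.07e-05). TET1, a DNA demethylase, rose more in HepG2 (1.62 against 0.38), and KDM4A, a histone demethylase, rose in HKC-8 (0.31) and fell in HepG2 (-0.21).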
